A study of Ovis aries with 6 samples.

Results

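A set of 8 genes of cell-cell junctions is described here in granulosa cells of sheep ovarian follicles, out of 34119 loci in the deposited table. They are the gap junction genes GJA1 and GJC1, the adherens junction genes CDH1, CDH2 and CTNNA1, and the tight junction genes TJP1, OCLN and CLDN11. The members were matched by symbol in the table's gene names, and all 8 were found. RNA was sequenced from 3 libraries of atretic follicles (follicles that degenerate before ovulation) and 3 of healthy follicles, and the study asks how their granulosa cells differ. Per the labels, TRIzol was used to isolate total RNA, which was then depleted of ribosomal RNA. The labels call the 3 libraries of a group independent biological replicates but name no animals, so p-values measure only the spread between these libraries. No breed, age, follicle size or treatment is named for either group. The groups were read from the initials in the titles, AGC and HGC, together with the design text.

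Granulosa cells form an epithelium around the oocyte that is held together by cadherins and coupled by gap junctions. A connexin hexamer from each of a pair of neighbouring cells makes a channel through which small molecules such as cyclic nucleotides pass, and GJA1 encodes the connexin that forms most gap junctions between granulosa cells. Classical cadherins such as CDH2 (N-cadherin) and CDH1 (E-cadherin) bind their like on the next cell and are tied to actin by catenins, among them the alpha-catenin CTNNA1. Tight junctions are built from membrane proteins, such as occludin (OCLN) and the claudins, on scaffolds such as TJP1. Loss of contact between granulosa cells is a known feature of follicular atresia.

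Total counts were between 87455037 and 91597388 per library. Healthy replicate 3 was unlike the other 5 libraries, with a biological coefficient of variation of 0.447 to 0.45 against the other healthy libraries, compared with 0.137 between those and 0.153 to 0.18 among the atretic ones. The result of each tested member is therefore given with and without it. Of 10 granulosa markers 9 were found, including the FSH receptor gene FSHR with 99475 to 126699 counts per library, and none had a count of 0 in any library. All 10 endothelial markers were found, with 409 to 2714 counts per library for PECAM1, while the endothelial cadherin CDH5 had 4 counts in healthy replicate 3 and 0 in the other libraries. In bulk RNA, fewer cells of a type and less RNA per cell cannot be told apart.

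No junction gene among the 8 differed between atretic and healthy follicles past the test. Of the 8 genes, 7 passed the filter of a mean of at least 1 FPKM (fragments per kilobase of locus, scaled to library size) and were tested, and CDH1 did not. With p-values from edgeR (quasi-likelihood, adjusted by Benjamini-Hochberg over all 14702 tested loci), 0 of these 7 were higher and 0 lower in atretic. Over all tested loci 0.0476% were called higher and 0.0204% lower, 0.068% together. At an unadjusted p under 0.05 the count was 1, GJC1, against 12.8% of tested loci, and DESeq2 called 0 members, against 2.54% of loci as higher and 1.75% as lower, 4.29% together. The adjusted p of the 7 genes lay between 0.346 and 0.925, which does not show that the groups were alike. Their median log2 fold change (atretic minus healthy) was 0.11, with 4 positive and 3 negative values, and the median over all tested loci was -0.03. Without healthy replicate 3, GJC1 passed as higher in atretic and the other 6 did not, while 18.8% of loci were called in that fit.

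**Figure D1:**
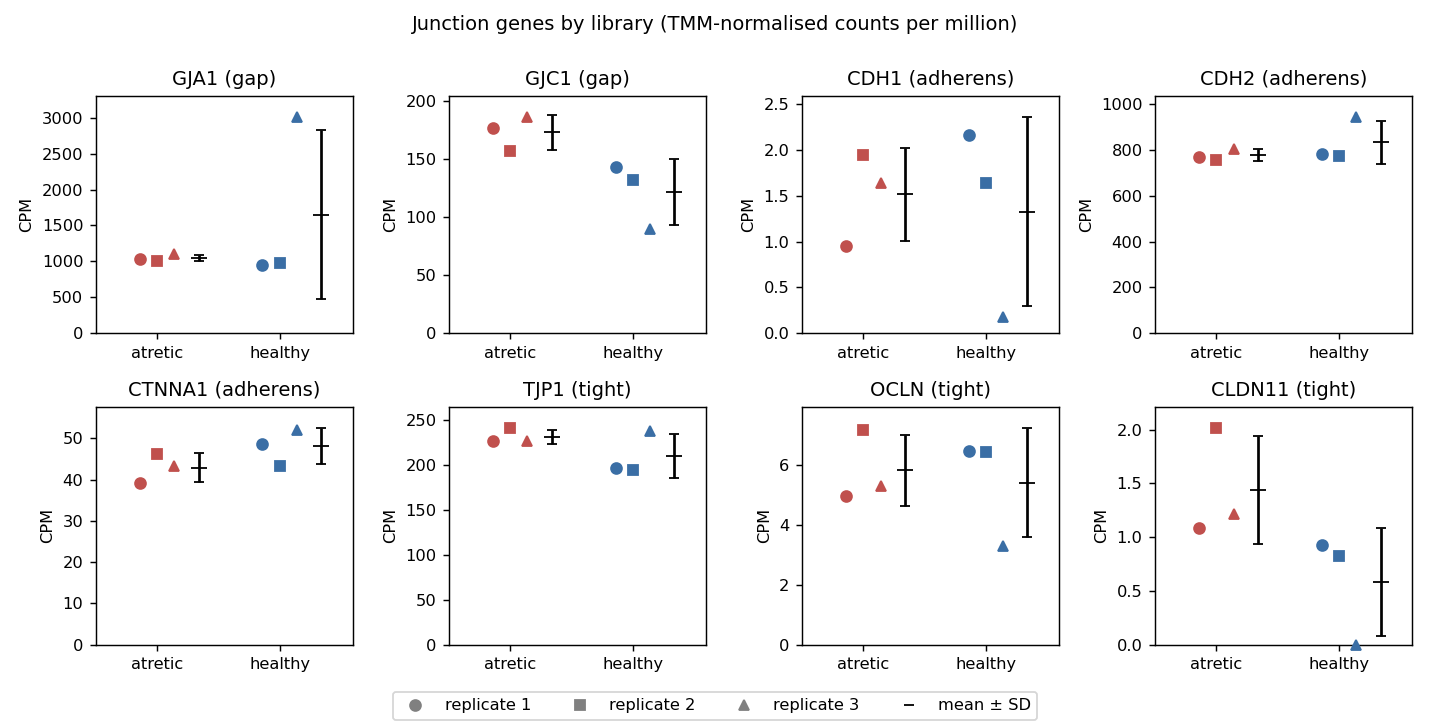
Level of each junction gene in every library, in CPM normalised by TMM, with red symbols for atretic and blue for healthy libraries, the symbol shape for the replicate number, and the mean with its SD (n = 3) beside them. GJA1 lies between 957 and 1102 CPM in 5 libraries and at 3006 in healthy replicate 3. GJC1 and CLDN11 are the genes whose groups do not overlap on this scale.

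GJA1 was the most abundant member per length in all 6 libraries, with like levels in 5 of them and a far higher one in healthy replicate 3. Levels of single genes are given as CPM, counts scaled to library size and normalised by TMM. Overlap between groups and the place of a library are read in CPM unless FPKM is named. GJA1 lies on chromosome 8 of the table's build (18642891 to 18656167, minus strand, locus MSTRG.27209). In atretic replicates 1, 2 and 3 GJA1 had 1033, 1012 and 1102 CPM, and the healthy libraries had 957, 979 and 3006 CPM in the same order. Healthy replicate 3 held 2.73 times the CPM of the next library, and the other 5 libraries lay within a factor of 1.15 of each other. An excess of healthy replicate 3 over the next library larger than this was seen in 284 of the 14702 tested loci (1.93%). The group means were 1049 ± 47.1 CPM for atretic against 1647 ± 1177 CPM for healthy follicles (SD, n = 3). The log2 fold change of GJA1, atretic minus healthy, was -0.65 (SE 0.46, 95% interval -1.76 to 0.46, edgeR adjusted p = 0.618). Without healthy replicate 3 the log2 fold change of GJA1 turned to 0.11 (SE 0.07, 95% interval -0.04 to 0.27, edgeR adjusted p = 0.294). On the FPKM scale, GJA1 ranked between 14 and 19 among 9542 tested protein-coding loci in 5 libraries and 3 in healthy replicate 3.

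The granulosa markers moved with GJA1 in healthy replicate 3. Of the 9 markers found, 8 were highest there, as were 31.8% of all tested loci. Their summed level was 8493 to 8649 CPM in the atretic libraries, 8076 and 7984 in healthy replicates 1 and 2, and 31538 in the third healthy library. The activin subunit gene INHBA made up much of that sum, with 14810 CPM in healthy replicate 3 and 2221 to 3007 in the other libraries. The sums of the theca and luteal lists, which share the LH receptor gene LHCGR, were also highest in that library. The 5 theca markers summed to 902 CPM there and 343 to 420 in the other libraries, and the 6 luteal markers to 1275 against 444 to 514. LHCGR itself had 304 CPM there and 10.6 to 43.1 in the other libraries. In healthy replicate 3 INSL3 held 566 CPM of the theca sum and CYP11A1 952 CPM of the luteal sum. PTCH1 of the theca list and STAR and PTGFR of the luteal list were lowest there, at 30.4, 7.77 and 4.73 CPM. The part of these lists in the GJA1 value was not tested.

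GJC1 is a second connexin gene, best known from the heart's conduction system and from blood vessels in mice. In CPM, GJC1 was higher in every atretic library than in any healthy one. It lies on chromosome 11 (18510235 to 18543065, plus strand, locus MSTRG.5662), on a locus that also carries a U6 small nuclear RNA, so its counts may include reads of that gene. GJC1 had 177, 157 and 186 CPM in atretic and 143, 132 and 89.8 CPM in healthy replicates 1, 2 and 3. In CPM the groups did not overlap, whereas in FPKM atretic replicate 2 (3.99) lay just below healthy replicate 1 (3.995). Healthy replicate 3 was the lowest library on both scales. The means were 173 ± 15 CPM for atretic against 122 ± 28.2 CPM for healthy follicles (SD, n = 3). The GJC1 log2 fold change was 0.51 (SE 0.19, 95% interval 0.04 to 0.97), which is 1.42-fold, with an unadjusted p of 0.0364 and an edgeR adjusted p of 0.346. With that library left out it was 0.33 (SE 0.10, edgeR adjusted p = 0.0371), or 1.26-fold, so the GJC1 difference became smaller and passed the test. In that fit 10.9% of all tested loci passed as higher.

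The 2 connexin genes parted most in healthy replicate 3, where GJA1 was highest and GJC1 lowest. The log2 ratio of GJA1 to GJC1 FPKM was 5.85, 6.0 and 5.88 in atretic replicates 1 to 3, whereas healthy replicates 1 to 3 had 6.05, 6.20 and 8.37. Every atretic library thus had a lower ratio than every healthy one. The mean difference, atretic minus healthy, was -0.96 (exact two-sided permutation p = 0.1, the smallest that 3 libraries against 3 can give). It was -0.21 when healthy replicate 3 was left out (exact permutation p = 0.2). The size of the ratio itself depends on the lengths behind the FPKM values, given below, and the difference between groups does not.

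**Figure D2:**
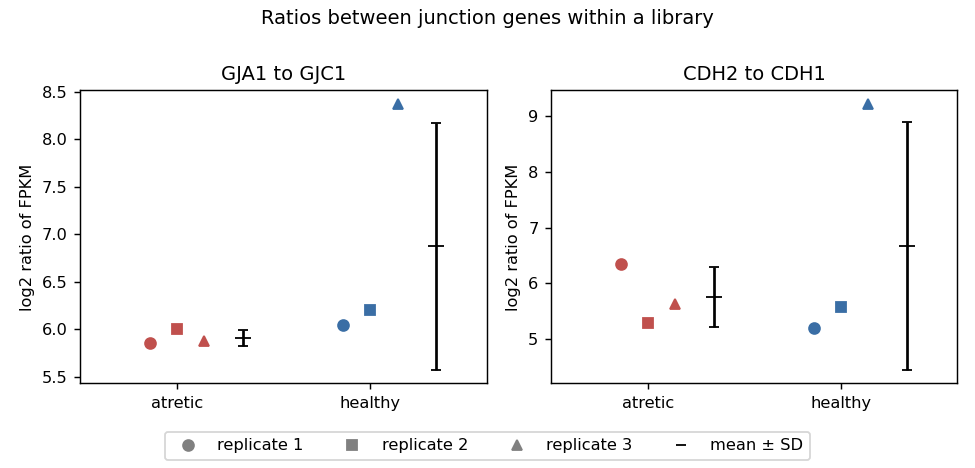
Log2 ratio of FPKM within each library for GJA1 to GJC1 (left) and CDH2 to CDH1 (right), with red symbols for atretic and blue for healthy libraries and the mean with its SD (n = 3). Healthy replicate 3 has the highest value of both ratios, 8.37 and 9.22. The vertical axes do not start at 0.

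CDH2, the cadherin of granulosa cells, was the second most abundant member per length in each library and differed little between libraries. It lies on chromosome 23 (33314943 to 33572907, plus strand, locus MSTRG.17997). CDH2 had 770, 753 and 805 CPM in atretic and 783, 773 and 942 CPM in healthy replicates 1, 2 and 3. The groups overlapped, and healthy replicate 3 was again the highest library in CPM, 1.21 times the mean of healthy replicates 1 and 2. In FPKM healthy replicate 3 had 20.9, below the 22.6 and 22.1 of healthy replicates 1 and 2. The log2 fold change of CDH2 was -0.10 (SE 0.14, 95% interval -0.45 to 0.24, edgeR adjusted p = 0.824). It was -0.0065 without healthy replicate 3 (95% interval -0.16 to 0.15, edgeR adjusted p = 0.961).

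CDH1, the cadherin of most other epithelia and of the oocyte, was the lowest member per length in 5 of the 6 libraries. It lies on chromosome 14 (38825293 to 38895878, plus strand, locus MSTRG.8692). CDH1 had 73, 159 and 131 counts in atretic and 195, 147 and 12 counts in healthy replicates 1, 2 and 3, or 0.955, 1.95, 1.64, 2.17, 1.64 and 0.173 CPM in that order. The groups overlapped and healthy replicate 3 was the lowest library, 11-fold below the mean of the other healthy ones. In the fit with no filter on low values its log2 fold change was 0.19 (SE 0.78, edgeR adjusted p = 0.956). Of 11 oocyte markers 9 were found, and 5 of these were lowest in healthy replicate 3, while NOBOX was highest there. The 9 summed to 3.33 to 3.47 CPM in atretic, 12.3 and 10.7 in the first 2 healthy libraries and 1.11 in healthy replicate 3, and 7 of them had 0 counts in some library. Of the surface epithelium markers 7 of 10 were found, and their sum was 420 CPM in healthy replicate 3 and 161 to 183 in the other libraries. UPK1B alone held 419 CPM of the sum in healthy replicate 3, while KRT18, KRT19 and UPK3B were lowest there, as CDH1 was. The part of such cells in the CDH1 value was not tested.

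The log2 ratio of CDH2 to CDH1 FPKM was 6.35, 5.29 and 5.63 in atretic and 5.19, 5.58 and 9.22 in healthy replicates 1, 2 and 3. CDH2 thus exceeded CDH1 in every library. The groups overlapped, with a mean difference of -0.91 (exact two-sided permutation p = 0.9) that turned to 0.37 without healthy replicate 3 (exact permutation p = 0.4).

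CTNNA1 lies on chromosome 5 (52278568 to 52611709, plus strand, locus MSTRG.24465). It had 39.1, 46.2 and 43.2 CPM in atretic and 48.7, 43.4 and 52 CPM in healthy replicates 1, 2 and 3. The groups overlapped through atretic replicate 2. The log2 fold change of CTNNA1 was -0.16 (SE 0.12, 95% interval -0.45 to 0.12, edgeR adjusted p = 0.623), and -0.11 without healthy replicate 3 (edgeR adjusted p = 0.524).

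Among the tight junction members TJP1 was the most abundant per length in every library, and CLDN11 the one with the widest difference. TJP1 (chromosome 18, 26337236 to 26452122, minus strand, locus MSTRG.12126) had 227, 241 and 227 CPM in atretic and 197, 195 and 238 CPM in healthy replicates 1, 2 and 3. In CPM, healthy replicate 3 lay among the atretic libraries, and the other healthy libraries lay below all of them. In FPKM the groups did not overlap, at 4.78 to 5.28 in atretic and 4.39 to 4.74 in healthy, with healthy replicate 3 lowest. The log2 fold change of TJP1 was 0.14 (SE 0.13, 95% interval -0.16 to 0.44, edgeR adjusted p = 0.696). It was 0.24 without healthy replicate 3 (SE 0.08, edgeR adjusted p = 0.0589), which did not pass.

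OCLN (chromosome 16, 10664962 to 10712375, minus strand, locus MSTRG.10495) had 4.99, 7.2 and 5.31 CPM in atretic and 6.48, 6.45 and 3.3 CPM in healthy replicates 1, 2 and 3. The groups overlapped on both sides. The log2 fold change of OCLN was 0.11 (SE 0.31, 95% interval -0.64 to 0.86, edgeR adjusted p = 0.925), and it turned to -0.15 without healthy replicate 3 (edgeR adjusted p = 0.649).

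CLDN11, known from the barrier between Sertoli cells and from myelin in mice, rests on few counts. It lies on chromosome 1 (236125604 to 236139381, minus strand, locus MSTRG.4148). CLDN11 had 83, 164 and 97 counts in atretic and 83, 74 and 0 counts in healthy replicates 1, 2 and 3, or 1.09, 2.01 and 1.22 CPM against 0.922, 0.823 and 0 CPM. The groups did not overlap, though atretic replicate 1 and healthy replicate 1 were close. CLDN11 passed the filter with a mean of 1.03 FPKM over all libraries, from 1.43 in atretic and 0.637 in healthy. It was thus tested only because of its atretic level, which favours a higher value in atretic. The 0 in healthy replicate 3 allows up to 0.0329 CPM of all counts, taking 3 counts as the limit, for counting error only. The log2 fold change of CLDN11 was 1.29 (SE 1.04, 95% interval -1.21 to 3.79, edgeR adjusted p = 0.664). Leaving out healthy replicate 3 gave 0.72 (SE 0.37, edgeR adjusted p = 0.208).

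In CPM, GJC1 and CLDN11 were the 2 of 7 tested members whose groups did not overlap, both higher in atretic. CLDN11 passed the filter only through its atretic level, so its direction is not read as a result. Over all tested loci 22% had groups that did not overlap in CPM, 11.1% as higher and 10.8% as lower. In FPKM the groups of GJC1 overlapped and those of TJP1 did not, and no share over all loci was taken on that scale. In CPM, healthy replicate 3 was the highest or lowest library in 6 of the 7 tested members. It was highest in GJA1, CDH2 and CTNNA1 and lowest in GJC1, OCLN and CLDN11. Such an outer place in CPM was seen in 65% of all tested loci, so the members' count is read beside that share. In FPKM, healthy replicate 3 lay between other libraries in CDH2 (20.9) and CTNNA1 (4.01) and was lowest in TJP1 (4.39).

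**Figure D3:**
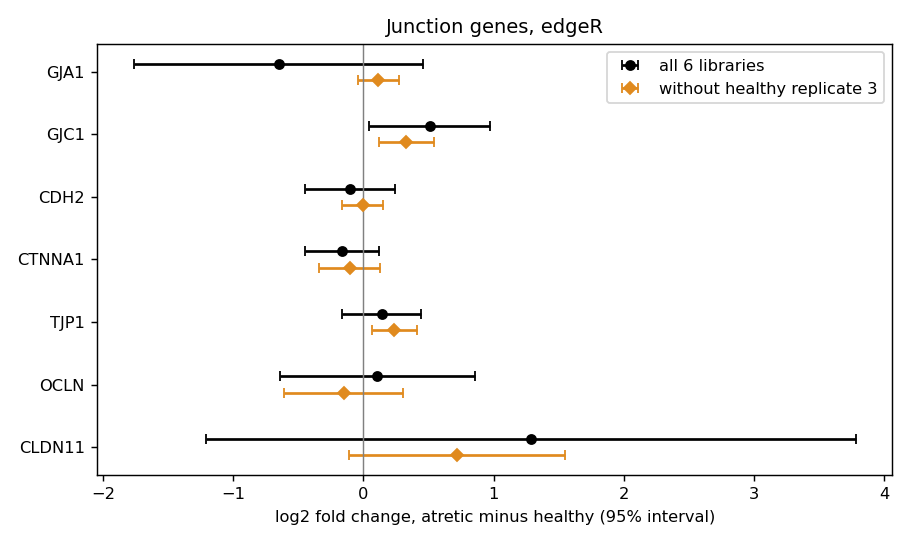
Log2 fold change of the 7 tested junction genes, atretic minus healthy, with 95% intervals, from edgeR with all 6 libraries (black circles) and without healthy replicate 3 (orange diamonds). With all libraries the estimate of GJA1 is -0.65 and turns to 0.11 without that library, and GJC1 keeps a positive value in both.

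Per length, the order in healthy replicates 1 and 2 was GJA1 with a mean of 266 FPKM, CDH2 with 22.3, TJP1 with 4.68, CTNNA1 with 4.59, GJC1 with 3.82, OCLN with 2.09, CLDN11 with 0.956 and CDH1 with 0.539. In atretic the means were 259 ± 11.4 FPKM for GJA1, 20 ± 0.65 for CDH2, 4.98 ± 0.27 for TJP1, 4.32 ± 0.32 for GJC1, 3.85 ± 0.4 for CTNNA1, 1.7 ± 0.38 for OCLN, 1.43 ± 0.53 for CLDN11 and 0.388 ± 0.137 for CDH1 (SD, n = 3). TJP1, CTNNA1 and GJC1 changed places between libraries, so their order is not set apart by these values. These orders depend on the assembled locus models. Count divided by FPKM and by the library total gave a length of at most 3.59 kb for GJA1, 3.53 kb for CDH1, 3.05 kb for OCLN, 0.9 kb for CLDN11 and 9.88 kb for CTNNA1. The same length was at most 34.4 kb for CDH2, 35.5 kb for GJC1 and 41.3 kb for TJP1. These are upper bounds, and that of GJC1 exceeds the 32.8 kb its locus spans.

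There were 5 members that shared their name with 17 further loci that have no annotated transcript. Of these, 13 lie on the opposite strand to the annotated gene, 2 on the same strand and 2 have no strand. CDH2 had 8 of them, all on the opposite strand, and their summed level exceeded that of the annotated locus in every library. The sum was 1569, 1349 and 1508 CPM in atretic and 1199, 1216 and 1928 CPM in healthy replicates 1, 2 and 3, which is 60.5 to 67.2% of all counts under the name CDH2. The largest, MSTRG.17996 (chromosome 23, 33290934 to 33391069), had 728, 630 and 706 CPM in atretic and 554, 558 and 871 CPM in healthy replicates 1, 2 and 3. Since it is not stated whether counting used strand, reads from CDH2 and from these loci cannot be told apart.

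**Figure D4:**
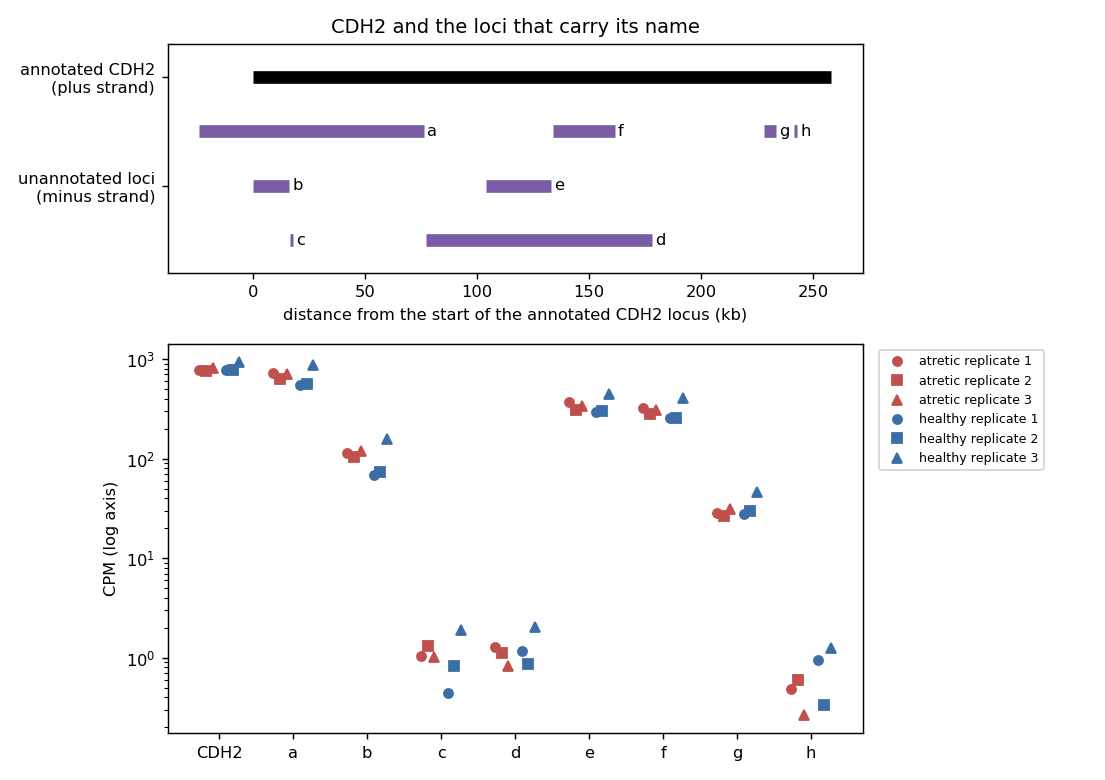
Upper panel, the annotated CDH2 locus and the 8 unannotated loci of the opposite strand that carry its name (letters a to h, where a is MSTRG.17996 and b MSTRG.17998), by distance in kb from the start of the annotated locus. Lower panel, the level of each in CPM on a log axis in every library, with red symbols for atretic and blue for healthy libraries. In CPM, healthy replicate 3 is the highest library in each of the 9 loci.

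None of the 12 further loci that could be tested passed (smallest edgeR adjusted p = 0.275), and 5 passed as higher in atretic without healthy replicate 3, where 10.9% of all tested loci did. These 5 were 2 loci opposite to CDH2, 1 opposite to TJP1, 1 within CTNNA1 on its strand and the locus beside CLDN11. For MSTRG.17996 the log2 fold change moved from 0.06 (edgeR adjusted p = 0.94) to 0.30 (edgeR adjusted p = 0.0254), and for MSTRG.17998, also opposite to CDH2, from 0.18 (edgeR adjusted p = 0.869) to 0.66 (edgeR adjusted p = 0.000645). For MSTRG.24466 within CTNNA1 it moved from 0.18 to 0.52 (edgeR adjusted p = 0.0198), and for MSTRG.12128 opposite to TJP1 from 0.28 to 0.60 (edgeR adjusted p = 0.0132). The locus beside CLDN11, MSTRG.4146 on chromosome 1 (236124566 to 236125015), has no strand and lies just below the annotated gene's lower coordinate. It had 114, 113 and 117 counts in atretic and 57, 33 and 7 counts in healthy replicates 1, 2 and 3, with no overlap, as in 11.1% of all tested loci. Its log2 fold change was 1.96 (SE 0.58, edgeR adjusted p = 0.275), and 1.53 without healthy replicate 3 (edgeR adjusted p = 0.0174).

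The rest of the junction genes were described by 4 lists of gap, adherens, tight junction and desmosome genes, 110 genes with the members. Of these 91 were found, 88 of them on a protein-coding locus, and 44 were tested. None was higher and none lower by edgeR, where 0.068% of all tested loci were called in either direction. At an unadjusted p under 0.05 there were 4 of the 44, against 12.8% of tested loci. DESeq2 called 0 higher and 1 lower, against 2.54% of loci as higher and 1.75% as lower. The median log2 fold change of the 44 was -0.00062, beside -0.03 over all tested loci. Groups did not overlap in 6 as higher and 5 as lower, together 11 of 44 beside 22% of all loci. When healthy replicate 3 was left out, 3 passed as higher, among them GJC1 and PARD3, and 3 as lower (NECTIN1, LIMD1 and CLDN1), where 10.9% of all tested loci passed as higher and 7.91% as lower.

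Of 23 gap junction genes 15 were found and 5 tested, with a median log2 fold change of 0.51 that fell to 0.11 without healthy replicate 3. Those described here beside the 2 members are GJA4 and the pannexin PANX1, and in the 10 found genes that were not tested no library exceeded 0.683 FPKM. GJA4, the connexin that couples oocyte and granulosa cells in mice, had 9.95, 11.7 and 9.48 CPM in atretic and 9.04, 11 and 0.577 CPM in healthy replicates 1, 2 and 3. GJA4 was thus level in 5 libraries and low in healthy replicate 3, the library with the lowest sum of oocyte markers (log2 fold change 0.59, edgeR adjusted p = 0.827, and 0.05 without that library). The oocyte marker sums were not level in the other 5 libraries, at 3.33 to 3.47 CPM in atretic and 12.3 and 10.7 in healthy replicates 1 and 2. The part of oocyte RNA in the GJA4 value was not tested. PANX1, a channel protein outside the connexin family, averaged 53.7 ± 4.74 CPM in atretic libraries and 53.8 ± 6.83 CPM in healthy ones (SD, n = 3), and the sign of its log2 fold change of -0.0044 turned under other normalizations (edgeR adjusted p = 0.993).

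All 23 adherens junction genes were found and 15 were tested, with a median log2 fold change of -0.16, and -0.04 without healthy replicate 3. In CPM, healthy replicate 3 was the highest library in 12 of the 15, and in 31.8% of all tested loci. Of the 12, CDH2 and CTNNA1 were not highest there in FPKM. In the 21 tested tight junction genes it was instead lowest in 12. Over all 44 tested junction genes it was highest in 18 and lowest in 20, and it was lowest in 33.2% of all tested loci. Beta-catenin (CTNNB1), which binds the cadherin tail and also carries WNT signals, had 333, 351 and 331 CPM in atretic and 387, 393 and 423 CPM in healthy replicates 1, 2 and 3. Plakoglobin (JUP), its relative shared with desmosomes, had 98, 112 and 102 CPM in atretic and 128, 121 and 115 CPM in healthy replicates 1, 2 and 3. In CPM neither overlapped between groups, and neither passed (log2 fold change -0.24 for CTNNB1 and -0.22 for JUP, edgeR adjusted p = 0.439 and 0.46), nor without healthy replicate 3 (edgeR adjusted p = 0.0801 and 0.0623). In raw counts the groups of JUP overlapped, with 7962 in healthy replicate 3 and 7486, 9141 and 8114 in atretic.

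The immunoglobulin-like adhesion gene NECTIN1 had 24.4, 26.7 and 19.4 CPM in atretic and 34.6, 35.3 and 35.4 CPM in healthy replicates 1, 2 and 3. It had the smallest adjusted p of all 44 genes (log2 fold change -0.58, SE 0.15, edgeR adjusted p = 0.218), DESeq2 called it lower (adjusted p = 0.04), and it passed without healthy replicate 3 (log2 fold change -0.58, edgeR adjusted p = 0.015). In CPM its 3 healthy libraries lay together, so the NECTIN1 difference on that scale did not change in size with healthy replicate 3. In raw counts healthy replicate 3 had 2459, below the 3113 and 3175 of healthy replicates 1 and 2. The atretic libraries had 1867, 2177 and 1543 counts, so this closeness depends on the TMM scaling. LIMD1, a LIM-domain protein recruited to adherens junctions, had 27.8, 28.5 and 24.9 CPM in atretic and 36.6, 33.1 and 39 CPM in healthy replicates 1, 2 and 3 (log2 fold change -0.42, edgeR adjusted p = 0.263, and -0.36 with edgeR adjusted p = 0.0434 without healthy replicate 3). Vinculin (VCL), an actin linker of junctions and focal adhesions, averaged 149 ± 5.26 CPM in atretic libraries and 124 ± 45.4 CPM in healthy ones (SD, n = 3). Its value in healthy replicate 3 was 72.9 CPM, and its log2 fold change of 0.26 (edgeR adjusted p = 0.761) turned to -0.015 without that library.

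Of 51 tight junction genes 43 were found and 21 tested, with a median log2 fold change of 0.05. CLDN1 was the tight junction gene that passed as lower without healthy replicate 3. It had 6.31, 5.22 and 6.12 CPM in atretic and 11, 10.5 and 1.25 CPM in healthy replicates 1, 2 and 3 (log2 fold change -0.37, edgeR adjusted p = 0.873, and -0.88 with edgeR adjusted p = 0.00456 without healthy replicate 3). The polarity scaffold PARD3 had 669, 598 and 603 CPM in atretic and 482, 473 and 616 CPM in healthy replicates 1, 2 and 3 (log2 fold change 0.25, edgeR adjusted p = 0.57, and 0.38 with edgeR adjusted p = 0.0074 without healthy replicate 3). The adhesion molecule JAM3 averaged 61.2 ± 4.62 CPM in atretic libraries and 72.7 ± 39.1 CPM in healthy ones (SD, n = 3). Its value in healthy replicate 3 was 118 CPM, and its log2 fold change of -0.25 (edgeR adjusted p = 0.82) turned to 0.29 without that library. AMOT, an angiomotin bound to tight junctions, had 7.86, 7.22 and 6.74 CPM in atretic and 5.23, 6 and 4.02 CPM in healthy replicates 1, 2 and 3, with no overlap (log2 fold change 0.52, edgeR adjusted p = 0.366). The scaffold PATJ (log2 fold change 0.0032), the polarity kinase PRKCI (-0.03) and its partner PARD6G (0.61) had edgeR adjusted p between 0.547 and 0.993. Without healthy replicate 3 PATJ was at 0.03, PRKCI at -0.22 and PARD6G at 0.35 on the log2 scale. AMOT was then at 0.37 (edgeR adjusted p = 0.174). CLDN5, the claudin of endothelium, had at most 7 counts in any library.

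Of 13 desmosome genes 10 were found and 3 tested, all without a call and with overlapping groups. The plaque protein DSP, whose locus also carries a U6 RNA, averaged 45.3 ± 5.7 CPM in atretic libraries and 35.8 ± 19.5 CPM in healthy ones (SD, n = 3). DSP had 13.6 CPM in healthy replicate 3, and its log2 fold change of 0.34 (edgeR adjusted p = 0.806) turned to -0.052 without that library. The plakophilins PKP2 and PKP4 had log2 fold changes of 0.41 and 0.10 (edgeR adjusted p = 0.623 and 0.795), and 0.16 and 0.14 without healthy replicate 3. The desmosomal cadherin DSG2 was below the filter, with 0.602, 0.981 and 1.04 CPM in atretic and 0.3, 0.456 and 0 CPM in healthy replicates 1, 2 and 3.

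**Figure D5:**
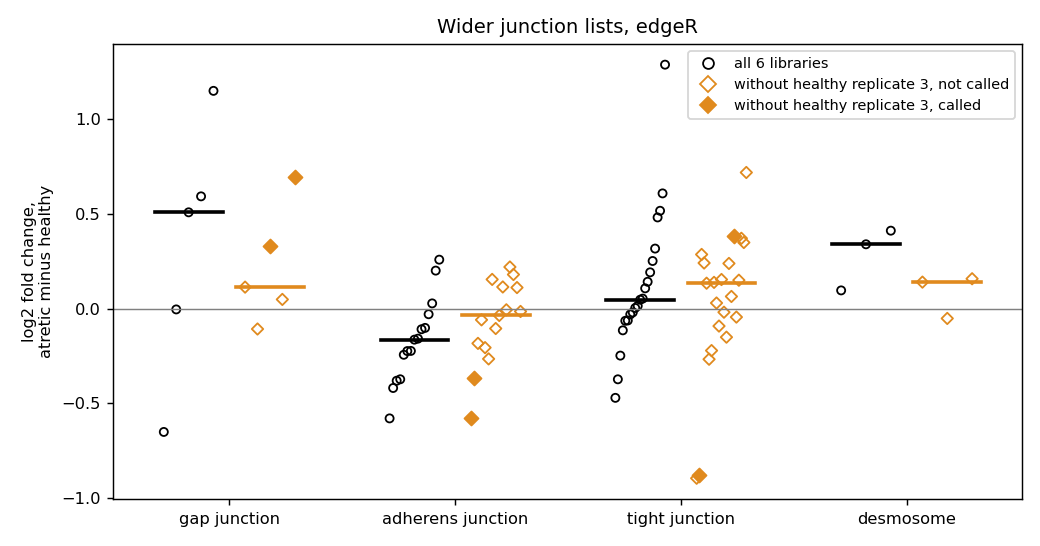
Log2 fold change of every tested gene of the 4 junction lists, atretic minus healthy, by edgeR with all 6 libraries (black circles) and without healthy replicate 3 (orange diamonds, filled where the adjusted p is under 0.05), with horizontal bars for the medians. No circle is filled because no gene passed with all libraries, and the 6 filled diamonds are 3 positive and 3 negative values.

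Markers of other cell types differed in level between libraries. The 10 stroma markers summed to 334 to 370 CPM in atretic, 432 and 423 in the first 2 healthy libraries and 132 in healthy replicate 3. MYH11 alone held 247 to 278 CPM of the atretic sums and 256, 249 and 73.4 CPM in healthy replicates 1, 2 and 3. COL1A1 had 1.92 to 3.91 CPM in atretic and 21.6, 21.9 and 3.11 CPM in those healthy libraries. The 10 macrophage markers found of 12 all had a lower mean in atretic, with sums of 344 to 393 CPM in atretic and 409 to 627 in healthy. CD68 alone held 270 to 306 CPM in atretic and 312 to 335 CPM in healthy. CD163, CD14, TYROBP and FCER1G were lowest in healthy replicate 3. The endothelial markers summed to 22.7 to 23.7 CPM in atretic and 26.3 to 54.1 in healthy, with 4 of 10 at no more than 1 CPM in any library. Only PECAM1 had groups that did not overlap, at 5.13 to 7.39 CPM in atretic and 16.1 to 30.2 CPM in healthy. In healthy replicate 3 PECAM1 held 16.1 of the 26.3 CPM. VWF, KDR, TEK and TIE1 were lowest in that library, and VWF had a higher mean in atretic (5.07 against 4.4 CPM). The part of these cell types in the junction gene values was not tested.

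The protein-coding gene most like each tested member across the 6 libraries was found by the root mean square difference of log2 CPM after centring each gene. For GJA1 it was DTNBP1 (0.035 log2 units) among 7827 genes compared, where the median gene differed by 0.64. DTNBP1 had 126 to 130 CPM in atretic, 119 and 123 in the first 2 healthy libraries and 386 in healthy replicate 3. The nearest genes were ZFP1 for GJC1 (0.047), BPNT2 for CDH2 (0.024), CALM2 for CTNNA1 (0.017), MAP3K12 for TJP1 (0.027), NOL6 for OCLN (0.048) and THBS2 for CLDN11 (0.42). The value for CLDN11 was the widest, and there both genes had their lowest value in healthy replicate 3. With 6 libraries and this many genes compared, such near matches are a description of these libraries alone.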

How the data were processed

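Granulosa cell RNA of 3 atretic and 3 healthy follicle libraries was read from 1 deposited table. Per the file headers it holds raw counts per locus and FPKM values (fragments per kilobase, scaled to library size) computed by the authors. The tools named, per the submitters' processing notes and with no role given, are StringTie 2.1.6, HISAT2 2.0.4, SAMtools, FastQC 0.11.9 and cutadapt 1.9. Neither the genome build nor the strand setting of counting is stated in the sources used here, and coordinates are those of the deposited table.

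Where several loci carried a symbol, the protein-coding one of highest mean count stood for the gene. The 5640 loci without a gene name, with 8.88 to 11.5% of counts per library, entered neither library sizes nor tests. Named loci with a mean FPKM of at least 1 (14702) entered edgeR 4.0.16's quasi-likelihood test on the counts, with TMM normalization, group as the only term, two-sided tests and Benjamini-Hochberg adjustment over all of them at 0.05. The standard error (SE) is the log2 fold change divided by the square root of the F statistic, and 95% intervals use the test's degrees of freedom. Ratios of FPKM were tested by exact two-sided permutation. Alternatives used DESeq2 1.42.0, limma 3.58.1, other filters and normalizations, a replicate block and each library left out. The fit ran in R 4.3.3 and was tested on simulated data. Tables and plots were made in Python 3.11.15 (matplotlib 3.10.9, pandas 2.3.3).

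The members and lists were chosen with earlier results of these data known. In each wider list the 4 genes of highest mean FPKM, the 3 of smallest p and any called gene were named. CLDN1 and the unannotated loci were added after their values were seen. The values of 1 gene that this rule names are not reported here.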

Additional observations from a re-analysis of the deposited data

How the results depend on the processing

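For each log2 fold change, 17 alternatives were run, 6 of them leaving out 1 library each. CDH2, CTNNA1, TJP1 and CLDN11 kept their sign and stayed outside the threshold in all 17, and GJC1 kept its sign and passed in 1, without healthy replicate 3. With 3 libraries a group, and with 0 to 195 counts per library for CDH1 and CLDN11, small differences in these genes are not detectable.

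The numbers of loci called, 7 higher and 3 lower, became 372 and 257 with DESeq2, 2 and 0 with no filter and with filterByExpr, and 18 and 5 with protein-coding loci alone. With unnamed loci included 33 were higher. Lower loci numbered 1 each with upper-quartile normalization, with robust dispersion and with limma on log2(FPKM + 1) or log2(FPKM + 0.1). Leaving out 1 library gave 0 to 1598 higher and 0 to 1163 lower loci, 0 to 1 members higher, and 0 to 3 genes of the wider lists in each direction, with the highest counts without healthy replicate 3. DESeq2 called 1 gene of the wider lists lower, beside 1.75% of all loci. The CDH2 to CDH1 difference ranged from -1.65 to 0.37 over the left-out libraries.

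Leaving out 1 library turned the sign of the log2 fold change in these ranges: -0.92 to 0.11 for GJA1, -0.15 to 0.26 for OCLN, -0.11 to 0.070 for PANX1, -0.015 to 0.48 for VCL, -0.46 to 0.29 for JAM3, -0.043 to 0.041 for PATJ, -0.22 to 0.16 for PRKCI, -0.052 to 0.68 for DSP, -0.88 to 0.0026 for CLDN1, -0.047 to 0.30 for MSTRG.17996 and -0.019 to 0.66 for MSTRG.17998. PANX1 also turned to 0.0028 with DESeq2, 0.0030 with RLE, 0.0023 with upper-quartile normalization, 0.0022 with no filter and 0.054 with protein-coding loci alone. PATJ turned to -0.014 with unnamed loci, -0.022 with limma on log2(FPKM + 1) and -0.026 on log2(FPKM + 0.1), PRKCI to 0.033 with protein-coding loci alone and CLDN1 to 0.052 with limma on log2(FPKM + 0.1). The cause was not tested.

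With the replicate number as a block, 0 loci were called in either direction, and PANX1 and CLDN1 turned to 0.00014 and 0.042. The deviations of same-numbered libraries from their group means had correlations of -0.133, 0.056 and 0.001. With 3 libraries a group and healthy replicate 3 apart from the others, these values cannot show whether same-numbered libraries share an animal or a batch. The labels do not state that the numbers pair libraries.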
